A study of Mus musculus with 2 samples.

Results

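The VEGF and angiopoietin systems are the main secreted signals between wound stroma and blood vessels. The 10 genes described here were taken by their symbols and were 10 of the 27998 genes listed for each library. They are the ligand genes *Vegfa*, *Vegfb* and *Vegfc* with the receptor genes *Flt1* (VEGF receptor 1), *Kdr* (VEGF receptor 2) and *Flt4* (VEGF receptor 3), and the ligand genes *Angpt1* and *Angpt2* with the receptor gene *Tek* (Tie2) and its relative *Tie1*. Transcripts of all 10 were detected in both libraries, from 179 UMIs in the control and 26 in SM22-SmoM2 for *Flt4* to 4111 and 1074 for *Flt1*.

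VEGF-A acts on endothelial cells mainly through *Kdr* and drives their division, sprouting and permeability. *Flt1* also binds VEGF-A and VEGF-B and can act as a decoy, while VEGF-C acts through *Flt4* on lymphatic endothelium. Angiopoietin 1, released by perivascular cells, activates Tie2 and steadies vessels, whereas angiopoietin 2, stored in endothelial cells, opposes it in many settings, and *Tie1* modulates Tie2 without a well-defined ligand of its own.

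Single dermal cells were compared between mouse skin wounds with and without forced Hedgehog activation. Both lines carried SM22rtTA and tetO-Cre, in which the SM22 promoter, described in the study as a dermal myofibroblast promoter, drives the doxycycline-dependent activator of Cre. The control also carried R26-Tomato, a red reporter switched on by Cre. The SM22-SmoM2 mice carried R26-SmoM2/Tomato, so that the same Cre switched on SmoM2, a constitutively active Smoothened that turns on the Hedgehog pathway without ligand. Mice of both genotypes were 4 to 5 weeks old and received doxycycline at 20 g/kg from day 1 after wounding, and wound dermis was taken 3 days after complete re-epithelialization, after incubation in 20 mM EDTA. Tomato+ cells were sorted from the wounds and run on the 10x Chromium platform. Each condition was 1 library of cells from pooled wounds, so no test between the conditions was possible, and every comparison below is between 2 libraries. The 95% intervals given with the values are exact and cover counting error only, not the spread between animals.

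The control library held 2856 cells after filtering, with 30103855 UMIs (unique molecular identifiers, 1 for each captured transcript) and a median of 8607.5 UMIs per cell. The SM22-SmoM2 library held 1792 cells with 17814222 UMIs and a median of 8837.5. Cells were grouped without using the 10 genes and were named from marker genes. Fibroblast-like cells numbered 1090 in the control (38.2%) and 1050 in SM22-SmoM2 (58.6%), endothelial-like cells 599 (21.0%) and 218 (12.2%), mural-like cells (pericytes and vascular smooth muscle) 218 (7.63%) and 81 (4.52%), and Schwann-like cells 658 (23.0%) and 286 (16.0%). A further 42 and 24 cells were immune-like, 15 and 1 keratinocyte-like, 234 and 84 were left as mixed because their leading genes belonged to another lineage, and 48 SM22-SmoM2 cells formed a group with no control cell that was left unnamed. The Tomato+ sort therefore held several lineages beside fibroblasts. The 7 endothelial markers together reached 6821 CPM (UMIs of the genes per 1000000 UMIs of the class) in control endothelial-like cells and 6218 in SM22-SmoM2, and none of the 7 was at 0 in that class. By Y-linked genes and Xist, male cells made up 74.6% of control and 94.5% of SM22-SmoM2 fibroblast-like cells that could be called. All levels below are CPM, all folds are SM22-SmoM2 over control, and levels are compared within a gene and not between genes.

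The sequences upstream of 3 of the receptor genes and of *Vegfa* are shown. Most UMIs of these receptors lay in endothelial-like cells and most of *Vegfa* in fibroblast-like cells, though *Flt1* and *Tek* were also counted in other classes. Each is the 250 bases before the RefSeq start (GRCm38.p6), 5′ to 3′ on the strand of the gene. Capitals in the receptor sequences mark GGAA or its reverse complement TTCC, the core bound by ETS factors, which many endothelial genes use. Capitals in the *Vegfa* sequence mark GGGCGG or its reverse complement CCGCCC, the GC box bound by Sp1.
Flt1: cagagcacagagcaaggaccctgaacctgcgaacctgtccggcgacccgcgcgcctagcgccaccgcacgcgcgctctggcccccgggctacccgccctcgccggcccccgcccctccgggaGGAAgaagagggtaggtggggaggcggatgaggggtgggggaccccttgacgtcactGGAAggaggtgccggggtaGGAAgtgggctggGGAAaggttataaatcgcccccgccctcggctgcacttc
Kdr: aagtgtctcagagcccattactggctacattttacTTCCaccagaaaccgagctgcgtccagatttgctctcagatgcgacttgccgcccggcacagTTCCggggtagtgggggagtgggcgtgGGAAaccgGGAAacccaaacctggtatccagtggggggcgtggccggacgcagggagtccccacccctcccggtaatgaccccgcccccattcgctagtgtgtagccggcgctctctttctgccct
Tek: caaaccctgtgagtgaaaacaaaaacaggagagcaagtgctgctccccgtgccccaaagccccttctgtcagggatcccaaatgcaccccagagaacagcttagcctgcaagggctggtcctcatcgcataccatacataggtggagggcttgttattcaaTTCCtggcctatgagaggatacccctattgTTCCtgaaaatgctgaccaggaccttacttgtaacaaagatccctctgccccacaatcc
Vegfa: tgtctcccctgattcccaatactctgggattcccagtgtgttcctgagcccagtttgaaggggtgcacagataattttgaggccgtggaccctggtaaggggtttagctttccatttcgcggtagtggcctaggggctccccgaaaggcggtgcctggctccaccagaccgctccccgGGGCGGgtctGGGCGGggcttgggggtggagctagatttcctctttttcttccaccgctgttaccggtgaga
The windows were chr5:147726012-147726261 (minus strand) for *Flt1*, chr5:75978456-75978705 (minus) for *Kdr*, chr4:94739039-94739288 (plus) for *Tek* and chr17:46032378-46032627 (minus) for *Vegfa*. They held 4, 4 and 2 ETS cores in *Flt1*, *Kdr* and *Tek* and 6 in *Vegfa*, where they are not capitalised. GC boxes numbered 3 in *Flt1*, 2 in *Kdr*, 0 in *Tek* and 2 in *Vegfa*, so neither motif separated the receptor windows from that of *Vegfa*. Of 32851 such windows over all genes, 93.4% held an ETS core, with a median of 3, and 32.7% held a GC box. The hypoxia-factor core ACGTG (or CACGT), found in 16.6% of windows, was not in the *Vegfa* window shown, but a window at the other *Vegfa* start of the table (chr17:46025164-46025413) held 1. The GLI sequence GACCACCCA (or TGGGTGGTC), found in 0.225%, was in no window of the 8 matched members. *Vegfa* lies at chr17:46016993-46032369 on the minus strand, *Flt1* at chr5:147561604-147726011 on the minus strand, *Kdr* at chr5:75932827-75978458 on the minus strand and *Tek* at chr4:94739289-94874976 on the plus strand (GRCm38). *Angpt2*, at chr8:18690263-18741562 on the minus strand, lies inside *Mcph1*, which is on the opposite strand. The other members are *Vegfb* at chr19:6982473-6987651 (minus), *Vegfc* at chr8:54077606-54187096 (plus), *Flt4* at chr11:49609263-49652739 (plus), *Angpt1* at chr15:42424723-42676977 (minus) and *Tie1* at chr4:118471191-118490061 (minus).

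*Vegfa*, the ligand of *Kdr* and *Flt1*, was the member with the largest fibroblast-like fold. Fibroblast-like cells held 172 *Vegfa* UMIs in the control, 12.2 CPM (interval 10.4 to 14.1), and 530 in SM22-SmoM2, 43.6 CPM (40.0 to 47.5). This was 3.58-fold, a log2 ratio of 1.84 (1.59 to 2.10), beside a median of -0.08 over the 12975 genes with enough UMIs in that class. A fold of 1.5 or more, on at least 20 UMIs over both libraries, is called past the fold here, and in fibroblast-like cells 12.8% of all genes were higher and 14.3% lower by that rule. The *Vegfa* UMIs were spread over 136 of 1090 control and 304 of 1050 SM22-SmoM2 cells, and the 10 highest cells held 15.7% and 14.3% of them. With every cell thinned to 1500 UMIs, 2.39% (1.56 to 3.48) of control and 6.76% (5.32 to 8.45) of SM22-SmoM2 fibroblast-like cells had a *Vegfa* UMI, against 12.5% and 29.0% unthinned. In endothelial-like cells the thinned share was 0.501% in the control and 0 of 218 in SM22-SmoM2, which by a floor of 3 UMIs allows up to 1.38%. The part of free RNA in the fibroblast-like values was not tested.

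**Figure D1:**
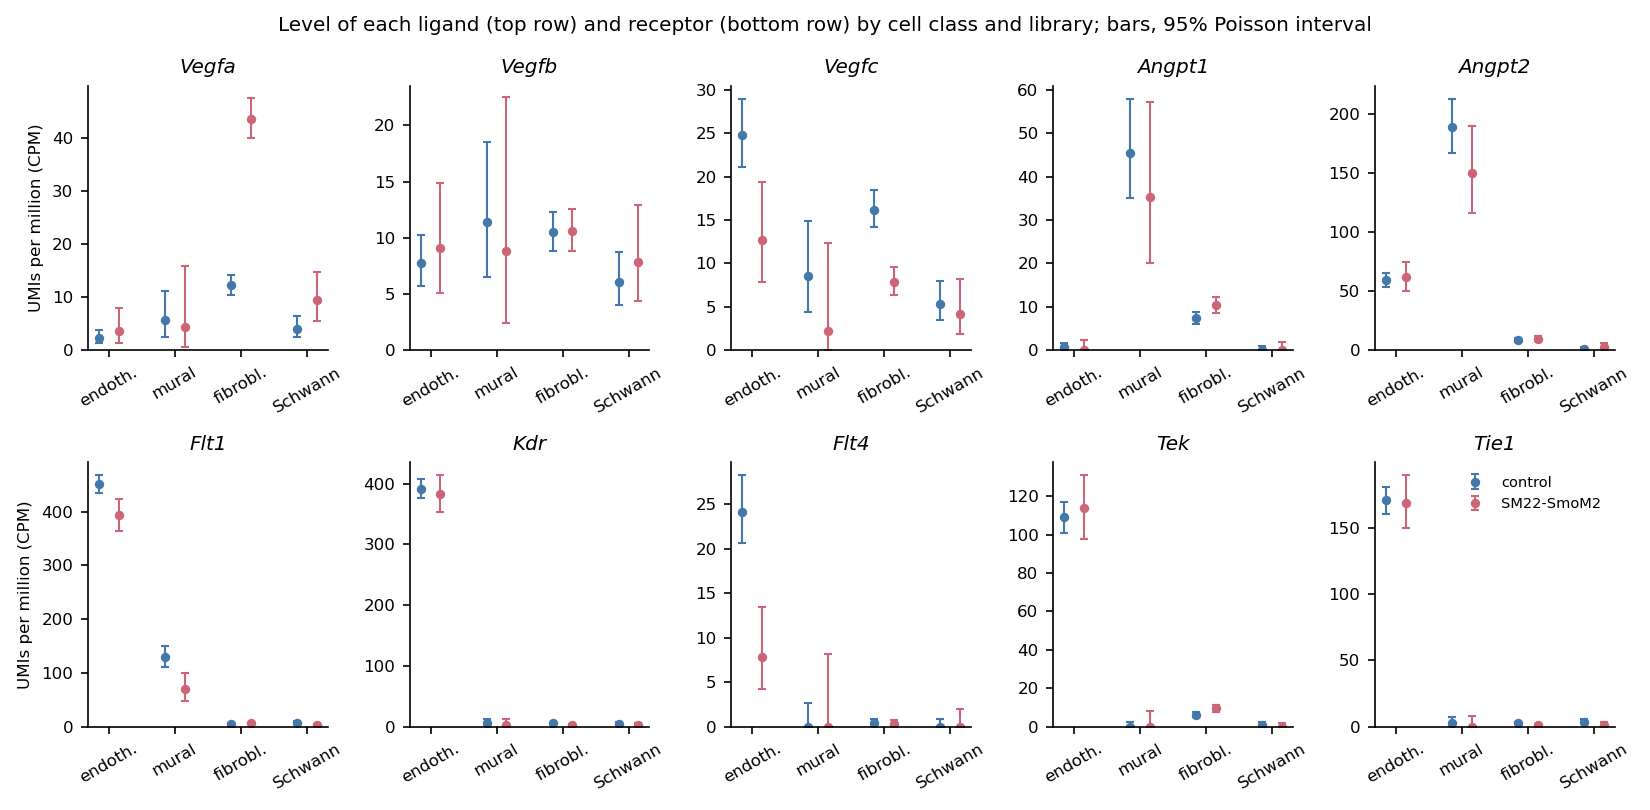
CPM of each of the 10 genes in the endothelial-like, mural-like, fibroblast-like and Schwann-like classes, control beside SM22-SmoM2, with exact 95% Poisson intervals of the summed UMIs as error bars. *Flt1*, *Kdr*, *Tek* and *Tie1* are highest in endothelial-like cells in both libraries, *Angpt1* and *Angpt2* in mural-like cells, and *Vegfa* in SM22-SmoM2 fibroblast-like cells (43.6 CPM).

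Other classes held few *Vegfa* UMIs. Control levels were 5.68 CPM in mural-like (8 UMIs), 4.01 in Schwann-like (18) and 2.31 in endothelial-like cells (15), below the fibroblast-like level of 12.2. The 42 control immune-like cells stood at 34.2 CPM, on 11 UMIs with an interval of 17.1 to 61.2. In SM22-SmoM2, Schwann-like cells reached 9.36 CPM on 18 UMIs, a log2 ratio of 1.22 (0.20 to 2.25) that turned to -0.50 (7 and 3 UMIs) once cells with UMIs of 3 or more markers of another lineage were left out. Endothelial-like cells reached 3.62 CPM on 6 UMIs, with an interval of the log2 ratio from -1.01 to 2.10. Of all *Vegfa* UMIs, 65.9% lay in fibroblast-like cells in the control and 88.9% in SM22-SmoM2, where those cells held 46.9% and 68.2% of all UMIs. Over all cells together *Vegfa* was at 8.67 CPM in the control and 33.5 in SM22-SmoM2 (log2 ratio 1.95), which combines the level in fibroblast-like cells with their number.

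The *Vegfa* signal was uneven among fibroblast-like clusters, and the 2 libraries filled different clusters. Control fibroblast-like cells lay mostly in clusters 1 (364 cells), 4 (290) and 9 (270), and SM22-SmoM2 cells in clusters 6 (293), 10 (252), 12 (188) and 1 (156). Cluster 12, led by *Penk*, *Il1rl1*, *H19*, *Areg*, *Mmp13* and *Inhba*, held 289 of the 530 SM22-SmoM2 UMIs and stood at 120.4 CPM (107 to 135), against 36.6 (30.4 to 43.7) in cluster 6 and 28.4 (22.0 to 36.0) in cluster 10. Only 6 control cells were in cluster 12, with 3 *Vegfa* UMIs. In the control the highest large cluster was 9, led by *Dlk1*, *Sfrp2* and *Clec3b*, at 21.0 CPM on 87 UMIs. Within cluster 1, led by *Crabp1*, *Prss35* and *Mfap4*, *Vegfa* stood at 4.59 CPM (2.84 to 7.02) in the control and 15.8 (10.7 to 22.5) in SM22-SmoM2. Within cluster 4, led by *Mmp3*, *Mfap4* and *Angptl1*, it stood at 10.3 CPM (33 UMIs) and 4.82 (5 UMIs), and within cluster 13, led by the cycling genes *Ube2c*, *Ccnb1* and *Birc5*, at 11.9 and 12.7. Without cluster 12 the log2 ratio was 1.04 (0.75 to 1.33). In clusters 1, 4 and 13, where both libraries had 50 cells or more, it was 0.69 (0.12 to 1.25), on 66 and 48 UMIs. In female cells alone it was 0.35 (-1.22 to 1.65), on 27 and 6 UMIs, and in male cells alone 1.79.

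**Figure D2:**
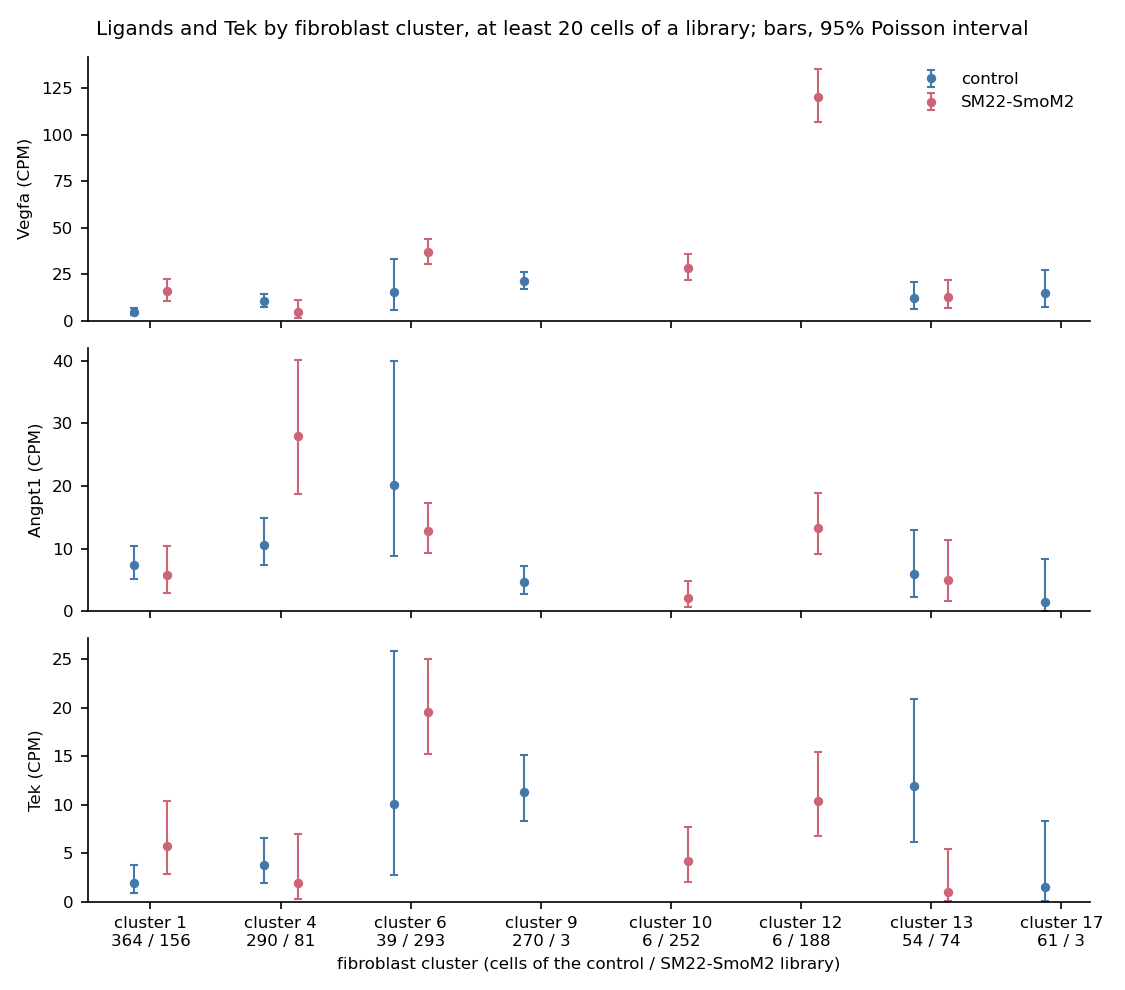
*Vegfa*, *Angpt1* and *Tek* in CPM by fibroblast-like cluster and library, for clusters with at least 20 cells of that library, with exact 95% Poisson intervals as bars. *Vegfa* in SM22-SmoM2 peaks in cluster 12 at 120.4 CPM, which holds 188 SM22-SmoM2 and 6 control cells, and *Tek* in cluster 6 at 19.6 CPM.

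Hedgehog target genes moved with these clusters but not in the same order as *Vegfa*. The Hedgehog markers together stood at 369 CPM in SM22-SmoM2 cells of cluster 6, 282 in cluster 10, 256 in cluster 13 and 190.3 in cluster 12, and at 21.6 in cluster 1. The unnamed SM22-SmoM2 cells, led by the gene with the symbol *a*, *Ibsp*, *Cd24a*, *Rarres1*, *Rspo3* and *Wif1*, had the highest Hedgehog marker level, 514 CPM, with *Vegfa* at 55.4 CPM on 18 UMIs. *Sox11* and *Alpl* were also among their leading genes. The paper describes *Alpl*, a dermal papilla marker, in only a small part of the Hedgehog-active fibroblasts. Whether the unnamed cells are that part was not tested. The hypoxia genes together stood at 1516 CPM in SM22-SmoM2 cluster 12, 1271 in cluster 6 and 3159 in control cluster 9. The part of Hedgehog activity, hypoxia, depth or sex in the *Vegfa* values was not tested.

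*Vegfb*, a ligand of *Flt1*, differed by less than counting error between the libraries. It stood at 10.5 CPM (148 UMIs) and 10.6 (129 UMIs) in fibroblast-like cells, a log2 ratio of 0.02 (-0.33 to 0.37), and at 7.71 and 9.06 in endothelial-like cells. In mural-like cells it was 11.4 CPM (16 UMIs) and 8.80 (4 UMIs), and in Schwann-like cells 6.02 and 7.80, so no class stood far from the others.

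*Vegfc*, the ligand of *Flt4*, was lower in SM22-SmoM2 in both classes that held most of it. Endothelial-like cells held 24.8 CPM in the control (161 UMIs, 21.1 to 29.0) and 12.7 in SM22-SmoM2 (21 UMIs, 7.85 to 19.4), a log2 ratio of -0.97 (-1.70 to -0.31). Fibroblast-like cells held 16.2 CPM (229 UMIs) and 7.82 (95 UMIs), a log2 ratio of -1.05 (-1.41 to -0.70). The direction of *Vegfc* was thus opposite to that of *Vegfa* in the same fibroblast-like cells. Among endothelial-like sub-clusters, *Vegfc* was highest in sub-cluster 3, led by the arterial and capillary genes *Rbp7*, *Sema3g* and *Gja4*, at 50.5 CPM in the control and 28.6 in SM22-SmoM2 on 7 UMIs. Sub-cluster 3 held 147 control and 33 SM22-SmoM2 cells. In sub-cluster 1, led by *Cxcl10* and *Csf3*, the levels were 13.4 and 13.0, and in sub-cluster 2, led by the venular genes *Ackr1* and *Lrg1*, 17.9 and 8.12. Among fibroblast-like clusters, *Vegfc* stood at 20.5 CPM in control cluster 9, at 16.5 and 3.85 in cluster 4 and at 21.9 and 10.8 in cluster 13.

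*Angpt1*, the activating ligand of Tie2, was highest per UMI in mural-like cells. Those cells held 45.5 CPM in the control (64 UMIs, 35.0 to 58.0) and 35.2 in SM22-SmoM2 (16 UMIs, 20.1 to 57.2), intervals that overlap, with a log2 ratio of -0.37 (-1.26 to 0.44). That ratio ran from -1.78 in female cells (12 and 1 UMIs) to 0.38 in male cells, and it was -1.07 with a 5% limit on mitochondrial UMIs and -0.79 with 30 clusters. The 7 fibroblast markers together stood at 4540.3 and 4793 CPM in mural-like cells. Mural sub-cluster 3 (43 and 12 cells) was set aside as mixed with the endothelial marker *Cldn5* among its leading genes. Its mural markers together stood at 14729 and 14151 CPM. *Angpt1* there was 61.6 CPM (23 UMIs) and 114 (8 UMIs), a log2 ratio of 0.89 (-0.48 to 2.10). In fibroblast-like cells *Angpt1* stood at 7.30 CPM (103 UMIs) and 10.4 (126 UMIs), a log2 ratio of 0.51 (0.12 to 0.90) that is not past the fold. Endothelial-like cells held 4 and 0 *Angpt1* UMIs and Schwann-like cells 0 in both libraries. Of all *Angpt1* UMIs, 44.6% lay in fibroblast-like cells in the control and 79.7% in SM22-SmoM2, 27.7% and 10.1% in mural-like cells and 26.0% and 10.1% in the mixed cells. In cluster 4 it stood at 10.6 CPM (7.33 to 14.8) against 27.9 (18.7 to 40.1), a log2 ratio of 1.40 (0.63 to 2.16). Cluster 1 stood at 7.44 and 5.79, and SM22-SmoM2 cells of clusters 6 and 12 at 12.8 and 13.3. In female fibroblast-like cells the log2 ratio was -1.88, on 1 SM22-SmoM2 UMI.

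*Angpt2*, the context-dependent Tie2 ligand, was read in mural-like and endothelial-like cells. In mural-like cells it stood at 189 CPM (167 to 213) in the control and 149.7 (116 to 189.7) in SM22-SmoM2, a log2 ratio of -0.34 (-0.74 to 0.05). That ratio was -1.10 with a 5% limit on mitochondrial UMIs, -1.07 with 30 clusters and 0.17 with thinned cells. In mural sub-cluster 3, set aside as mixed, *Angpt2* stood at 134 and 42.8 CPM (50 and 3 UMIs), a log2 ratio of -1.64 (-3.97 to -0.01). In endothelial-like cells it stood at 59.3 CPM (53.6 to 65.6) and 61.6 (50.2 to 74.8), a log2 ratio of 0.05 (-0.28 to 0.37). Among sub-clusters 1 to 3, sub-cluster 2 was highest at 90.7 and 92.6, followed by sub-cluster 1 at 66.0 and 47.5 and sub-cluster 3 at 24.7 and 32.7. The lymphatic-like sub-cluster stood at 65.8 (11 UMIs in 5 cells) and, in its 1 SM22-SmoM2 cell, at 404 on 4 UMIs. In fibroblast-like cells it was low, 8.29 and 9.63 CPM, with cluster 4 at 18.7 (60 UMIs) in the control and 4.82 (5 UMIs) in SM22-SmoM2, a log2 ratio of -1.95 (-3.63 to -0.65). In the same cluster *Angpt1* moved the other way.

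**Figure D3:**
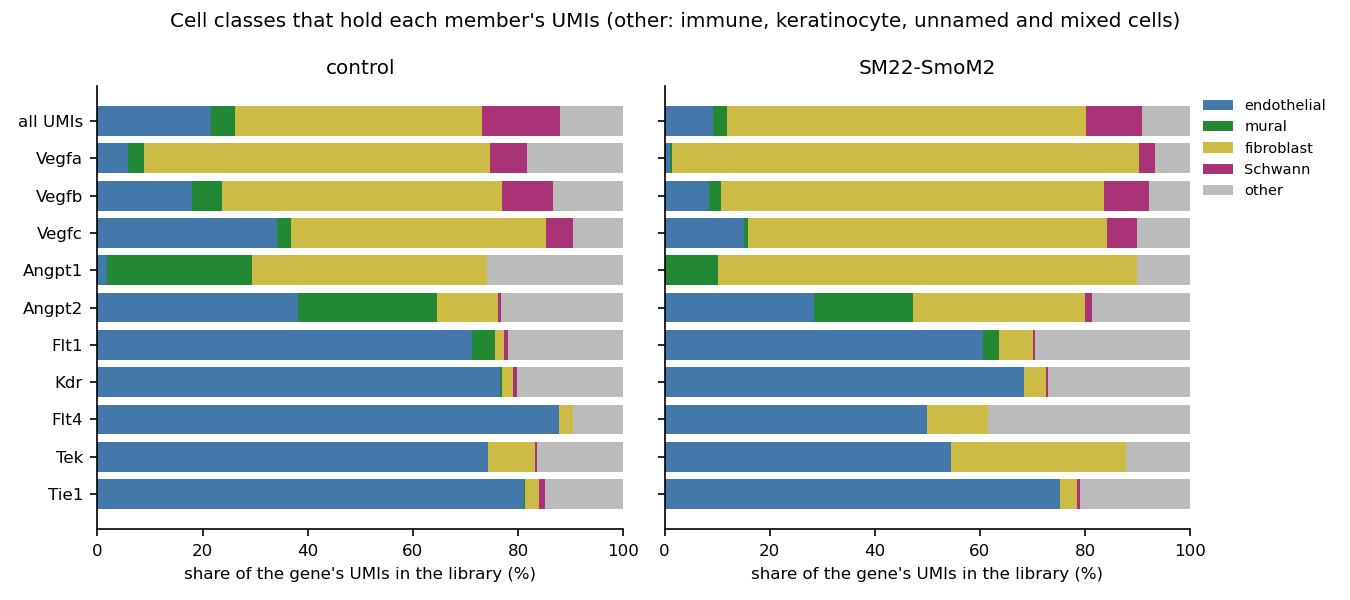
Percent of each member's UMIs by cell class in the control and SM22-SmoM2 libraries, beside that of all UMIs, with the immune, keratinocyte, unnamed and mixed cells as other. The fibroblast-like part of *Vegfa* is 65.9% and 88.9%, that of *Angpt1* 44.6% and 79.7% and that of *Tek* 8.93% and 33.3%. The 5 receptors together lie mainly in endothelial-like cells, at 75.0% and 64.3%. For *Flt4* in SM22-SmoM2 that part is 13 of 26 UMIs.

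The receptor transcripts lay mostly in endothelial-like cells in both libraries, and their summed level within those cells differed little. *Flt1*, *Kdr*, *Flt4*, *Tek* and *Tie1* summed to 1146 CPM (1121 to 1173) in control endothelial-like cells and 1067 (1018 to 1118) in SM22-SmoM2, a log2 ratio of -0.10 (-0.18 to -0.03), beside a median of -0.11 over the 10916 genes of that class. Of all receptor UMIs, 75.0% lay in endothelial-like cells in the control and 64.3% in SM22-SmoM2, with 19.6% and 23.9% in the mixed cells. Over all cells the sum was 329.5 CPM in the control and 154 in SM22-SmoM2, a log2 ratio of -1.10, while endothelial-like cells held 21.5% and 9.30% of all UMIs. In a sorted sample the share of a class follows the sort and the dissociation as well as the tissue, and fewer endothelial cells in the wound cannot be told apart from fewer Tomato+ ones here. From staining of SM22-SmoM2 and control small wounds, the paper reports that angiogenesis was unaltered before wound closure. That is earlier than the time of these libraries.

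*Kdr*, the main signalling receptor for VEGF-A, differed by less than counting error in endothelial-like cells. It stood at 391 CPM (376 to 407) on 2538 UMIs in the control and 383 (354 to 414) on 635 in SM22-SmoM2, a log2 ratio of -0.03 (-0.16 to 0.10). It was highest in sub-cluster 3, at 520.3 and 544 CPM, and in the small sub-cluster 5, led by the cycling genes *Birc5* and *Top2a* with 14 and 6 cells, at 494 and 623. Sub-clusters 1 and 2 stood at 362 and 283 in the control and 338 and 333 in SM22-SmoM2. Fibroblast-like cells held 5.17 and 3.21 CPM.

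*Flt1*, the VEGF-A and VEGF-B receptor, was slightly lower in SM22-SmoM2. Endothelial-like cells held 451 CPM (435 to 468) and 393 (363 to 424), a log2 ratio of -0.20 (-0.32 to -0.08) that was not past the fold. The median depth of these cells was 8688 and 6158 UMIs, and its part in the value was not tested. Sub-cluster 1 stood at 527 and 426 CPM (log2 ratio -0.31, -0.49 to -0.12), with sub-cluster 2 at 284 and 318 and sub-cluster 3 at 552 and 483. The soluble and membrane forms of *Flt1* cannot be told apart by UMIs near the 3′ end.

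*Flt1* was also read in mural-like cells. Mural-like cells held 182 UMIs, 129 CPM, in the control and 32 UMIs, 70.4 CPM, in SM22-SmoM2, a log2 ratio of -0.88 (-1.47 to -0.33). *Flt1* was the 1 member past the fold of the 4 with enough UMIs in that class, where 16.9% of all genes were lower and 8.32% higher by the same rule. The difference lay in mural sub-cluster 2, led by *Icam1*, *Pim1*, *Ccl2* and *Il6*, at 178 and 47.1 CPM (110 and 12 UMIs), and not in sub-cluster 1, at 91.1 and 100.3. Endothelial markers together were at 509 and 484 CPM in mural-like cells, and *Flt1* was 25.4 and 14.5 UMIs per 100 endothelial-marker UMIs there, against 6.61 and 6.32 in endothelial-like cells. *Kdr* had 9 and 1 UMIs in mural-like cells, *Tie1* 4 and 0, and *Tek* and *Flt4* none in either library. In female mural-like cells the *Flt1* log2 ratio was -0.10, on 45 and 12 UMIs. The unnamed SM22-SmoM2 cells held 31 *Flt1* UMIs, 95.3 CPM, in 10 of 48 cells, with 7 *Kdr* and 0 *Tie1* UMIs.

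**Figure D4:**
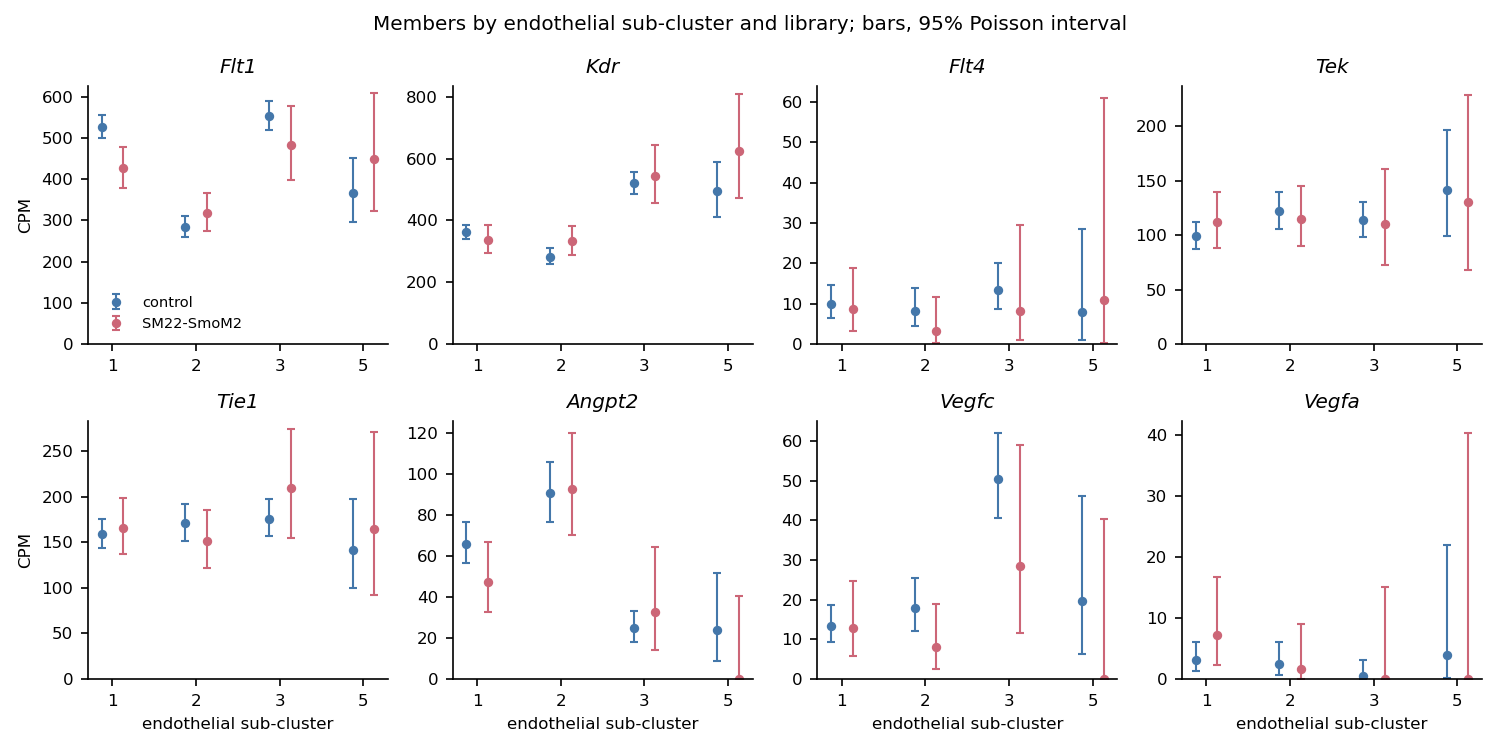
CPM of the 5 receptors and of *Angpt2*, *Vegfc* and *Vegfa* in endothelial-like sub-clusters 1, 2, 3 and 5 by library, with exact 95% Poisson intervals as bars. *Flt1* and *Kdr* are lowest in sub-cluster 2 (284 and 283 CPM in the control), where *Angpt2* is highest of those plotted (90.7).

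*Flt4*, the VEGF-C receptor and a lymphatic gene, had UMIs in 65 of 599 control and 12 of 218 SM22-SmoM2 endothelial-like cells. Endothelial-like cells held 157 UMIs, 24.2 CPM, in the control and 13 UMIs, 7.85 CPM, in SM22-SmoM2, a log2 ratio of -1.62 (-2.57 to -0.81). A lymphatic-like sub-cluster of 5 control cells and 1 SM22-SmoM2 cell carried 91 of the 157 control UMIs (58.0%, 49.8 to 65.8), 43 of them in 1 cell. The sub-cluster was named by lymphatic markers that include *Prox1*, *Lyve1* and *Ccl21a*. Its 5 control cells held, in that order, 90.5%, 96.8% and 96.6% of those genes' UMIs in control endothelial-like cells. *Flt4* stood at 544 CPM in these 5 cells. They had no *Flt1* UMI, 66 of *Kdr*, 57 of *Tie1*, 5 of *Tek* and 11 of *Angpt2*. Without these cells *Flt4* was 10.4 and 6.68 CPM (66 and 11 UMIs), a log2 ratio of -0.64 (-1.71 to 0.29), still past the fold but with an interval that includes 0. The lymphatic-like cells were 0.175% and 0.0558% of the libraries, and 2 of the 13 SM22-SmoM2 UMIs lay in them. The log2 ratio was 0.14 in female cells and 0.19 without cells holding 3 or more markers of another lineage.

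*Tek* and *Tie1*, the angiopoietin receptor and its partner, differed by less than counting error in endothelial-like cells. *Tek* stood at 109 CPM (707 UMIs) and 114 (188 UMIs), a log2 ratio of 0.06 (-0.18 to 0.29). *Tie1* stood at 171 CPM (1108 UMIs) and 169 (280 UMIs), a log2 ratio of -0.01 (-0.21 to 0.18). In sub-clusters 1, 2 and 3 *Tek* stood at 99.4, 122 and 114 CPM in the control and 112, 115 and 110.4 in SM22-SmoM2, and *Tie1* at 159, 171 and 176 and at 166, 151 and 209. The spread among sub-clusters was smaller than for *Flt1* and *Kdr*.

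*Tek* was also counted in fibroblast-like cells. These held 85 UMIs, 6.02 CPM, in the control and 115, 9.46 CPM, in SM22-SmoM2, a log2 ratio of 0.65 (0.24 to 1.07). In SM22-SmoM2 cells of cluster 6, led by *Penk*, *Clec3b*, *Mest* and *Gpc3*, *Tek* stood at 19.6 CPM (66 UMIs, 15.2 to 25.0), and in control cluster 9 at 11.3 (47 UMIs). Cluster 1 stood at 1.97 and 5.79. In the 3 clusters filled by both libraries the log2 ratio was -0.09 (-1.10 to 0.85), on 33 and 14 UMIs, an interval that includes the value over all fibroblast-like cells. Fibroblast-like cells had 6.09 and 10.3 *Tek* UMIs per 100 endothelial-marker UMIs, against 1.60 and 1.83 in endothelial-like cells, whereas *Tie1* had 2.51 and 1.07 against 2.50 and 2.72. The endothelial markers include *Cdh5*, which was itself higher in SM22-SmoM2 fibroblast-like cells. Thinned to 1500 UMIs, 0.642% and 1.62% of fibroblast-like cells had a *Tek* UMI, 0.152% and 0 of 286 Schwann-like cells, and 0 of 218 and 0 of 81 mural-like cells, the last 2 allowing up to 1.38% and 3.70% by the same floor. *Tie1* in fibroblast-like cells was 2.48 and 0.987 CPM, a log2 ratio of -1.33 (-2.41 to -0.35), and *Kdr* there had a log2 ratio of -0.69 (-1.29 to -0.11).

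By the 1.5-fold rule, the endothelial-like class had 9 members with enough UMIs, of which *Vegfa* was higher, on 21 UMIs with an interval including no change, and *Vegfc* and *Flt4* were lower. Of all genes of that class, 4.87% were higher and 12.6% lower. The fibroblast-like class had 9 such members, with *Vegfa* and *Tek* higher and *Vegfc*, *Kdr* and *Tie1* lower, beside the 12.8% and 14.3% of all genes given above. The Schwann-like class had 5, with *Vegfa* higher and *Flt1* and *Kdr* lower, where 6.51% of all genes were higher and 10.5% lower. The 2 Schwann-like receptor values rested on 32 and 4 UMIs for *Flt1* and 20 and 4 for *Kdr*. The 7 endothelial markers together stood at 98.7 and 42.1 CPM in the same cells, a log2 ratio of -1.23 (-1.59 to -0.88), and their part in the receptor values was not tested. *Flt1* turned to 0.14 when cells with other-lineage markers were left out.

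**Figure D5:**
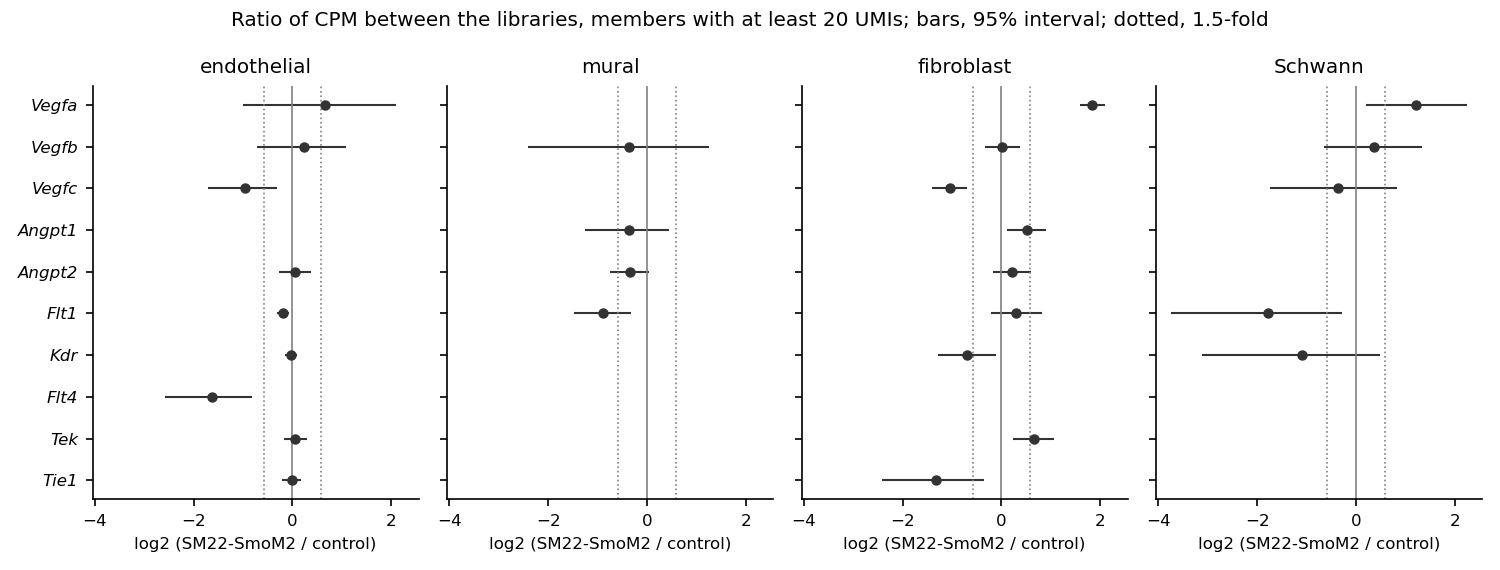
Log2 ratio of SM22-SmoM2 over control for members with at least 20 UMIs by cell class, with exact 95% intervals of counting error and the 1.5-fold limits as dotted lines. *Vegfa* in fibroblast-like cells is at 1.84 and *Kdr*, *Tek* and *Tie1* in endothelial-like cells are at -0.03, 0.06 and -0.01.

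Set by lineage, most *Vegfa* UMIs lay in fibroblast-like cells and most *Kdr* and *Flt1* UMIs in endothelial-like ones. *Vegfa* in the class with the ligand was 3.58-fold higher in SM22-SmoM2, while *Kdr* in the class with the receptors differed by less than counting error and the *Flt1* log2 ratio was -0.20. *Angpt1* and *Angpt2* levels were highest in mural-like cells and *Tek* in endothelial-like cells, and the intervals of these 3 log2 ratios and of endothelial-like *Angpt2* all included 0. By share of UMIs, *Angpt1* lay most in fibroblast-like cells, at 44.6% in the control and 79.7% in SM22-SmoM2. Its log2 ratio there was 0.51 (0.12 to 0.90), not past the fold. Levels of transcripts in 2 classes do not measure signalling between them. *Vegfc* and *Flt4* were both lower in endothelial-like cells, with 91 of the 157 control *Flt4* UMIs in 5 lymphatic-like cells.

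Other ligand and related genes of the families, among them angiopoietin-like genes, differed by class. In endothelial-like cells all 4 with enough UMIs were past the fold downward, beside 12.6% of all genes, with a median log2 ratio of -1.52. *Pgf*, placental growth factor, which binds *Flt1*, was at 27.3 and 7.85 CPM, a log2 ratio of -1.80, and *Angptl4*, an angiopoietin-like lipase inhibitor, at 37.5 and 14.5. The others were *Figf* and *Angptl2*, which were also lower in fibroblast-like cells. The 7 fibroblast markers together stood at 577 and 395 CPM in endothelial-like cells, a log2 ratio of -0.54 (-0.67 to -0.42). The part of free RNA in these values was not tested. In fibroblast-like cells 4 of 7 were lower, beside 14.3% of all genes, and none was higher, with a median of -0.68. In mural-like cells 1 of 3 was lower, beside 16.9% of all genes, and the median was 0.27. In fibroblast-like cells *Figf*, which encodes VEGF-D, stood at 52.8 and 32.8 CPM, *Angptl1* at 237 and 70.8 and *Angptl2* at 234 and 79.2. The log2 ratio of *Pgf* in fibroblast-like cells was 0.04. *Vegfa* was therefore the 1 ligand gene of the families past the fold upward in fibroblast-like cells.

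The co-receptors and the Tie2 phosphatase gene *Ptprb* were read in the same classes. In endothelial-like cells 0 of 6 passed the fold, where 4.87% of all genes were higher and 12.6% lower. *Nrp1*, a VEGF co-receptor, stood at 542 and 447 CPM in these cells and *Ptprb* at 495 and 420.2. In fibroblast-like cells 0 of 6 passed it either, where 12.8% of all genes were higher and 14.3% lower. In mural-like cells 3 of 6 were higher (*Nrp1* from 192 to 291 CPM, *Ptprb* and *Itga5*), beside 8.32% of all genes. The median of the 6 was 0.54, beside -0.10 over the 7832 genes of the class.

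A joint list of genes that respond to VEGF-A and genes of tip cells was read in endothelial-like cells. Of 14 with enough UMIs there, none was higher and 2 were lower, where 4.87% of all genes were higher and 12.6% lower, with a median log2 ratio of -0.38 beside -0.11. The count of lower genes is near that background. *Apln*, the apelin gene of tip cells, was 164 and 106 CPM and *Trp53i11* 96.3 and 60.4. *Esm1*, a tip cell gene, stood at 37.6 and 33.8 CPM and *Dll4*, a Notch ligand, at 85.1 and 65.2. Of 17 endothelial transcription factor genes none was past the fold, with a median of -0.15. Of the 6 junction and survival genes downstream of Tie2, the tight junction gene *Cldn5* was lower, at 799 and 329 CPM with a log2 ratio of -1.28, and *Birc5* was higher, with a median of -0.12. *Cldn5* is also a marker used to name the class and a leading gene of sub-cluster 3, which held 147 control and 33 SM22-SmoM2 cells. *Birc5* is a cycling gene that leads sub-cluster 5. The part of the sub-cluster shares in these 2 values was not tested.

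In fibroblast-like cells, the genes induced by hypoxia, a known inducer of *Vegfa*, were more often lower than higher. Of 15, 2 were higher and 6 lower, beside 12.8% and 14.3% of all genes. The count of higher genes is near that background. The median log2 ratio was -0.42, beside -0.08 over all genes of the class. *Ndrg1* was 87.1 and 136 CPM and *Egln3* 0.850 and 2.88, while the glycolytic gene *Ldha* was at 529.7 and 282, the mitophagy gene *Bnip3* at 45.8 and 9.05 and the collagen hydroxylase gene *P4ha2* at 279 and 110.1. In endothelial-like cells 0 of 15 were higher and 5 lower, beside 4.87% and 12.6% of all genes. Of 12 other angiogenic factors of stroma, none was higher in fibroblast-like cells and 6 were lower, among them the anti-angiogenic genes *Thbs2* (965 and 544 CPM), *Serpinf1* (1826 and 879) and *Efemp1* (102 and 23.9) together with the pro-angiogenic *Hgf*. The median of that list was -0.46.

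Genes of the endothelial lists moved in both directions in fibroblast-like cells. Of 15 endothelial transcription factor genes, 5 were higher and 4 lower, beside 12.8% and 14.3% of all genes. Their median log2 ratio was -0.37, beside -0.08 over all genes of the class. *Sox18* had 4 and 116 UMIs, 0.283 and 9.54 CPM, and *Mef2c* 34.6 and 137 CPM, while *Ets1* was 35.8 and 66.0. The lower ones were *Erg* (2.69 and 0.905 CPM), *Gata2* (1.91 and 0.658), *Epas1* (9.07 and 4.11) and *Klf2* (118 and 53.3). *Cdh5*, the endothelial cadherin gene, was at 8.57 and 28.2 CPM on 121 and 343 UMIs, a log2 ratio of 1.72, and the junction gene *Cldn5* at 5.45 and 2.30, a log2 ratio of -1.24. The 7 endothelial markers together, which include *Cdh5* and *Cldn5*, were at 98.9 and 92.2 CPM in the same cells, on 1396 and 1121 UMIs. The sum is therefore not independent of the *Cdh5* value.

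The genes whose profiles were most like those of the members over the 32 profiles of cluster and library, among 12006 genes, followed the same lineages. For *Vegfa* they were *Pmaip1* (r = 0.776), *Inhba* (0.775) and *Hk2* (0.744), and *Inhba* is also a leading gene of cluster 12, the fibroblast-like cluster highest in *Vegfa*. For *Angpt1* they were *Abhd11os* (0.880), *Ddit4l* (0.873) and *Vstm4* (0.865). For *Angpt2* they were *Ehd3*, *Epas1* (both 0.889) and *Fzd4* (0.884). For *Kdr* they were *Robo4*, *Rasgrp3* and *Adgrl4* (all 0.986), and for *Tek* *Cdh5* (0.971), *Ecscr* (0.966) and *Palmd* (0.965). These are Pearson correlations of log2(CPM + 10) given as a description, since the profiles of a library share its depth and its free RNA.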

How the data were processed

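Sorted Tomato+ cells were sequenced as 10x Chromium libraries, 1 per condition. The authors deposited UMI counts per gene and cell, made with Cell Ranger on mm10, and bcl2fastq is named too. Their versions are not given in the sources used here. The counts are raw whole numbers. The deposited barcode lists could not be tied to matrix columns, so barcodes shared by the libraries could not be counted.

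Cells with at least 200 genes and at most 10% mitochondrial UMIs were kept, which removed 22 control and 10 SM22-SmoM2 cells. Counts were scaled to 10000 per cell and log transformed. The 2000 most variable genes and 20 components were clustered by k-means (K = 20, 50 starts), with the members, the pathway lists and the Hedgehog markers left out (93 genes). A cluster was named where at least 3 markers, and most of a list, reached 10 CPM and 1.5 times the median cluster. The requirement for most of a list was set after the clusters were seen and left 48 SM22-SmoM2 cells unnamed. Large classes were sub-clustered, and sub-clusters led by markers of another lineage were set aside as mixed (234 and 84 cells). No doublet caller was used for the main values.

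Levels are CPM of UMIs summed per class and library, with exact Poisson 95% intervals, and ratios have exact conditional intervals. A ratio was given a call at 1.5-fold with at least 20 UMIs over both libraries, and a count of 0 was given a limit of 3 UMIs. With 1 library per condition no test was run. Shares of cells were compared after thinning to 1500 UMIs, which left out no cell. The named genes were the 10 members, list genes past the fold or abundant, and the 3 genes most correlated with 5 members. Where a gene of a list is named outside that rule, it was chosen after its values were seen. The members and lists were chosen with earlier results of these data known. The ratio step was tested on simulated data. The alternatives changed the filters, the clustering, doublets, mixed barcodes, depth, weighting, scaling and the sex of cells, and those on single clusters, lymphatic-like cells, mixed sub-clusters and centring were chosen after seeing the data. Python 3.11.15, numpy 2.4.6, scipy 1.17.1, scikit-learn 1.9.0, scanpy 1.11.5 and matplotlib 3.10.9 were used. Promoter windows came from a RefSeq table, which matched 8 of the 10 members, and gene positions from GENCODE on GRCm38.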

Additional observations from a re-analysis of the deposited data

How the results depend on the processing

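The 4 main ratios were recomputed under 15 or 16 alternative settings each, which gave 62 values. Of these, 54 lay inside the counting interval of the ratio reported and 8 outside it. The *Vegfa* log2 ratio in fibroblast-like cells, 1.84, ranged from 0.35 to 1.93 over 16 settings and stayed past the fold in 15. It was 1.51 with cells thinned to 1500 UMIs, 1.04 without cluster 12, 0.69 in the 3 clusters filled by both libraries and 0.35 in female cells. *Angpt1* in fibroblast-like cells was -1.88 in female cells. The 5 receptors in endothelial-like cells were at -0.27 in female cells and 0.00 relative to the median of all genes, and *Angpt2* there was 0.58 in female cells. Of 252 values for 17 other ratios, 225 lay inside that interval, 22 outside it with no change of a called direction, and 5 changed a called direction. Those 5 were *Tek* in fibroblast-like cells of the shared clusters (-0.09), *Flt4* in endothelial-like cells, female (0.14) or with cells holding 3 or more markers of another lineage left out (0.19), and with that filter *Vegfa* (-0.50) and *Flt1* (0.14) in Schwann-like cells. That filter removed 1209 control and 399 SM22-SmoM2 cells, and fewer cells and UMIs remain under it. The causes of the other changes were not tested. Scrublet marked 12 (0.420%) and 11 (0.614%) barcodes. No paired analysis was possible because each condition was 1 library. With 1 library a condition, the depth limits the ratios of genes with few UMIs, and the spread between animals is not known.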
